A study of Homo sapiens with 23 samples.

Results

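The response to interleukin 13 (IL-13) was measured in human lung fibroblasts that had first been exposed to tumour necrosis factor (TNF) and IL-17. The comparison takes 7 of the 23 arrays of the series: 4 from pretreated cells then given IL-13 (Pre_IL13) and 3 from pretreated cells given none (Pre_only). The arrays were chosen by their treatment labels, and all 12994 genes detected in the series were tested, with passage as a blocking term. Of these genes, 12658 were detected on at least 1 of the 7 arrays and 9647 on all 7.

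CCL-75 is a line of human lung fibroblasts, and every array comes from this 1 line. Pre_only cells received TNF and IL-17 for 72 hours, and Pre_IL13 cells received the same pretreatment, a wash and then IL-13 for 20 hours. For comparison, Control cells received neither, and IL13 cells received IL-13 for 20 hours with no pretreatment (4 arrays each). Pre_Ab_only and Pre_Ab_IL13 cells were pretreated and, in the last 1 hour, given a neutralising antibody to IL-13Ra2, without or with the later IL-13 (4 arrays each). Passage 6 and passage 8 were each used in experiments A and B, so that arrays are named P6-A, P6-B, P8-A and P8-B. For Pre_only no P8-A array was analysed here, and its passage 8 values rest on P8-B alone. The 12 arrays of passage 6 lay on 1 beadchip and the 11 arrays of passage 8 on another, which means that effects of passage and of beadchip cannot be told apart. The design text treats the passages as biological replicates and A and B as separate experiments, and p-values measure only the spread between such samples of 1 line.

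IL-13 is a cytokine of type 2 immunity. It signals through a receptor made of IL-13Ra1 (gene IL13RA1) and the IL-4 receptor alpha chain (IL4R), whose kinases activate the transcription factor STAT6. A further receptor, IL-13Ra2 (IL13RA2), binds IL-13 tightly and is known as a decoy. Fibroblasts given IL-13 are known to make eotaxins, chemokines that draw eosinophils, and the matrix protein periostin. SOCS1 and CISH, which damp cytokine signalling, are known targets of cytokine-activated STAT proteins.

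The 7 arrays resembled each other, with correlations of normalised levels between 0.985 and 0.996, and 0 pairs of arrays were identical. All 13 fibroblast markers tested, among them COL1A1, VIM and PDGFRB, were detected on all 7 arrays. Their summed normalised intensity ran from 56257 to 65872 in Pre_only and from 52534 to 63104 in Pre_IL13. Of the markers of other lineages, KRT19 and MUC1 (epithelial), TEK (endothelial) and CD14, CD68 and LYZ (leukocyte) were detected on all 7 arrays. EPCAM, PECAM1 and CD163 were each detected on 1 of the 7 and KRT8 and SCGB1A1 on 0, while PTPRC, CDH5 and CDH1 were not analysed here. In bulk samples, fewer cells of a type and less RNA per cell cannot be told apart. IL13RA2 stood at levels of 11.71, 11.32 and 11.15 in Pre_only, against a mean of 7.56 ± 0.43 (SD, n = 4) in Control. Level here means log2 normalised intensity, so a log2 change of 1 is a 2-fold change.

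By the test over all arrays, IL-13 changed few genes in pretreated cells. In it 4 of 12994 genes (0.0308%) passed an adjusted p under 0.05 in limma's moderated test with Benjamini-Hochberg adjustment, and all 4 rose: CCL26, CDH6, OXTR and WFDC1. The count of falls was 0, while 407 genes above 0 and 426 below 0 had an unadjusted p under 0.05 (3.13% and 3.28% of all genes). The count depended on the single passage 8 array of Pre_only: without P8-B 45 genes were called, 35 of them falls, and passage 6 alone gave 28, 23 of them falls. With the same test, 243 genes (1.87%) were called in untreated cells, 150 of which rose and 93 fell. In pretreated cells given the antibody 291 genes (2.24%) were called, 150 rising and 141 falling. Without background correction, and with the authors' deposited normalised values, 4 genes were again called in pretreated cells, but 2 of them rose (CCL26 and CDH6) and 2 fell (NAMPT and NPC1L1).

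CCL26 encodes eotaxin-3, a chemokine that draws eosinophils through the receptor CCR3. Its levels were 5.94, 6.53 and 6.30 on the Pre_only arrays P6-A, P6-B and P8-B. On the Pre_IL13 arrays they were 8.40 and 7.92 in passage 6 and 9.58 and 9.53 in passage 8. Every Pre_IL13 array lay above every Pre_only array, as for 342 of all genes (2.63%), and the passage 8 arrays were the highest. The change was 5.84-fold, a log2 change of 2.55 ± 0.22 (standard error, SE; n = 4 and 3; limma adjusted p = 1.25e-08). It was 1.92 in passage 6 and 3.26 in passage 8, and the difference between the passages passed the test (1.34 ± 0.28, limma adjusted p = 0.0368). In that test the Pre_only arm of passage 8 is the 1 array P8-B, which is assumed to vary like the arrays of the other groups.

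CCL26 reached higher levels in the other IL-13 groups. It went from 5.51 ± 0.14 in Control to 10.53 ± 0.11 in IL13 (SD, n = 4 each), and from 6.33 ± 0.10 in Pre_Ab_only to 11.10 ± 0.28 in Pre_Ab_IL13. The log2 change was 5.02 in untreated cells and 4.77 with the antibody. The pretreated minus the untreated response was -2.47 ± 0.29 (limma adjusted p = 1.45e-05). With the antibody the response exceeded that without by 2.22 ± 0.29 (adjusted p = 8.54e-05). No difference between passages was called in the other settings (-0.017, limma adjusted p = 0.993 in untreated cells; 0.49, adjusted p = 0.999 with the antibody). CCL26 kept its call when any 1 of the 7 arrays was left out, with log2 changes from 2.36 to 2.84.

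CDH6 encodes cadherin-6, a calcium-dependent adhesion molecule. Its levels were 9.26, 9.15 and 8.99 in Pre_only and 9.83, 9.87, 9.87 and 10.00 in Pre_IL13, in the order P6-A, P6-B, P8-A and P8-B, and the groups did not overlap. The log2 change was 0.80 ± 0.14 (n = 4 and 3, limma adjusted p = 0.0268), with 0.64 in passage 6 and 0.95 in passage 8. In untreated cells the change was 1.16 and with the antibody 1.49, and neither difference from the pretreated response was called (limma adjusted p = 0.679 and 0.244). The call ended when Pre_only lost P6-A (limma adjusted p = 0.155) or P6-B (0.157), and when Pre_IL13 lost P8-A (0.0904) or P8-B (0.105). CDH6 was called in 13 of 23 alternatives, and it also lost its call with the mean of its probes, no passage term, the replicate block, the mean of experiments A and B, no intensity trend and a minimum fold of 1.2. A further CDH6 probe, with a mean level of only 4.71, gave 0.064.

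OXTR encodes the oxytocin receptor, best known for smooth muscle contraction. Its levels were 9.10, 9.12 and 8.45 in Pre_only and 9.67, 9.69, 8.88 and 8.95 in Pre_IL13. The groups overlapped when passages were pooled, since passage 8 lay lower in both, but within each passage every Pre_IL13 array was above every Pre_only array. How many of all genes were so ordered was not counted. The fit that called OXTR had passage as a term, so this order describes the call and adds no support. The log2 change was 0.52 ± 0.096 (n = 4 and 3, limma adjusted p = 0.0268), with 0.57 and 0.46 in passages 6 and 8. The Control mean was 11.55 ± 0.45 (SD, n = 4), so that the gene stood lower in both pretreated groups. IL-13 gave 0.28 in untreated cells (limma adjusted p = 0.105) and 0.95 with the antibody (adjusted p = 1.03e-08). The difference between the pretreated and untreated responses was not called (0.23 ± 0.13, limma adjusted p = 0.686).

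WFDC1 encodes a secreted protein with a whey acidic protein domain, a fold found in protease inhibitors. Its levels were 7.50, 7.87 and 6.96 in Pre_only and 8.62, 8.37, 7.33 and 7.42 in Pre_IL13. The offset between passages was the same and there was no overlap within them, which again only describes the call. The log2 change was 0.67 ± 0.12 (n = 4 and 3, limma adjusted p = 0.0268), with 0.81 in passage 6 and 0.41 in passage 8. IL-13 gave 0.12 in untreated cells (limma adjusted p = 0.732) and 0.47 with the antibody (adjusted p = 0.016). The difference from the untreated response was not called (0.54 ± 0.17, limma adjusted p = 0.27). Pre_Ab_only arrays, which also had no IL-13, stood at 8.21, 8.30, 7.52 and 7.13. With Pre_only and Pre_Ab_only together as the arrays without IL-13, a setting chosen after seeing the data, WFDC1 gave 0.40 (limma adjusted p = 0.203) and lost its call, while OXTR gave 0.49 (adjusted p = 0.00237).

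OXTR and WFDC1 were each called in 7 of 23 alternatives, and among single arrays left out they kept their calls only without Pre_only P8-B. The limma adjusted p of OXTR was 0.149, 0.141, 0.0667 and 0.0832 without Pre_IL13 P6-A, P6-B, P8-A and P8-B. It was 0.155 and 0.157 without Pre_only P6-A and P6-B. For WFDC1 the same 6 values were 0.179, 0.068, 0.0667, 0.0896, 0.449 and 0.156. The probes behind the 4 called genes held 9 to 36 beads per array, and the bead standard error was 1.67% to 8.05% of the mean.

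**Figure D1:**
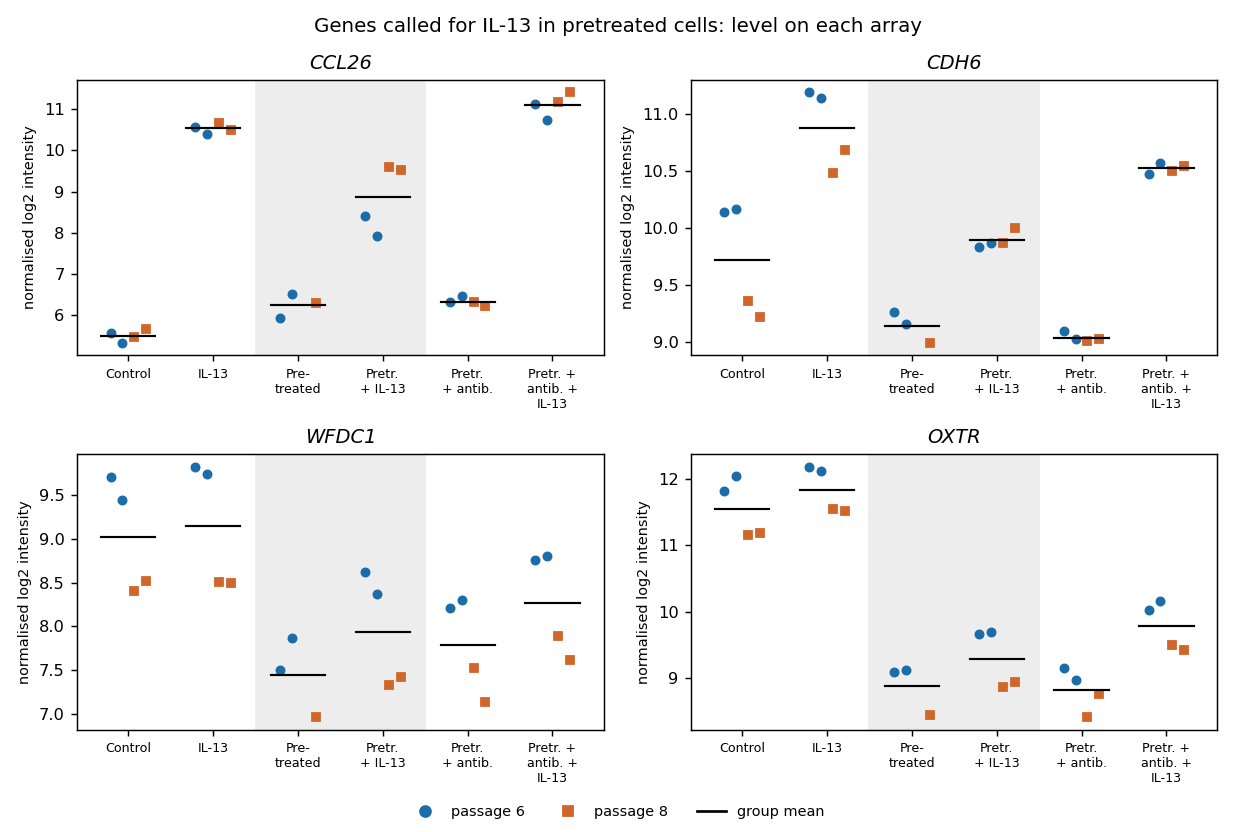
Level (normalised log2 intensity) of the 4 genes called for IL-13 in pretreated cells on each of the 23 arrays; points are single arrays, circles passage 6, squares passage 8, lines group means, and the grey band marks Pre_only and Pre_IL13. CCL26 and CDH6 do not overlap between the 2 marked groups, while OXTR and WFDC1 are apart only within a passage.

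Promoter windows from RefSeq (GRCh38.p14) show the letters before the start of CCL26, the called gene with the largest change, and of CISH, a known STAT target that stayed undetected on all 7 arrays. STAT proteins bind elements of TTC and GAA around a short spacer: STAT6 is known to favour TTCNNNNGAA and other STAT proteins TTCNNNGAA. Both motifs read the same on either strand, and the same stretch cannot match both. The sequences give the 250 bases before the start, 5′ to 3′ on the gene's strand, in lower case with the TTC and GAA of each match in capitals. CCL26 (chr7:75789747-75789996, minus strand) held 0 matches and CISH (chr3:50611775-50612024, minus strand) held 4 of the TTCNNNGAA form.
CCL26: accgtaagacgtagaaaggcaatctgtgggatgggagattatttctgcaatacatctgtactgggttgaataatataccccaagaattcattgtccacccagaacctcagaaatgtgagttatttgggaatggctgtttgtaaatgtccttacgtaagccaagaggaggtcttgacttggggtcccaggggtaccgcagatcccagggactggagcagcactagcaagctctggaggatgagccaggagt
CISH: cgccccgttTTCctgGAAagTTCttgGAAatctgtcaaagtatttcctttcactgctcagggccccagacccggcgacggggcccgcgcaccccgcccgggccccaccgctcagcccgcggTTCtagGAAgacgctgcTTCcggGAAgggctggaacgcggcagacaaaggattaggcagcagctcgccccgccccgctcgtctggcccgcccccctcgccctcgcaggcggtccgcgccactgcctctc

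In all 35116 windows searched, 5.38% held TTCNNNNGAA and 6.57% held TTCNNNGAA within these 250 bases. Counted by gene, 6.02% of the 10370 tested genes with a window held TTCNNNNGAA and 7.64% TTCNNNGAA. Of the 150 genes that rose in untreated cells 122 had a window, of which 9 (7.38%) held TTCNNNNGAA and 18 (14.8%) TTCNNNGAA. OXTR has 3 windows, 1 of which held TTCCACCGAA, starting 171 bases before the start. POSTN and CCL7 each held 1 TTCNNNGAA. A match describes letters only, and no match says only that these letters are not in this window. CDH6 and WFDC1 are not in the table.

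Of the 8 uncalled genes above 0 in both passages with the smallest p, ANPEP and COL6A1 came nearest to the threshold, and ANPEP, COL6A1, CFAP300 and SLIT2 rose in untreated cells. ANPEP, which encodes aminopeptidase N, stood at 7.56, 7.50 and 8.06 in Pre_only and at 8.04, 8.12, 9.42 and 9.21 in Pre_IL13. Its log2 difference was 0.86 ± 0.17 (limma adjusted p = 0.059), with 0.55 in passage 6 and 1.26 in passage 8. The pretreated minus the untreated response was -1.03 ± 0.24 (limma adjusted p = 0.0482), and the antibody minus the no-antibody response was 1.14 (adjusted p = 0.023). COL6A1, a chain of collagen VI, gave 0.46 ± 0.095 (limma adjusted p = 0.0593), against 0.43 in untreated cells. CFAP300, a ciliary gene, gave 0.62 (limma adjusted p = 0.237) and SLIT2, a secreted guidance protein, 0.53 (adjusted p = 0.237). With Pre_only and Pre_Ab_only together as controls, ANPEP (0.99, limma adjusted p = 0.000504) and SLIT2 (0.63, adjusted p = 0.00646) passed. DUS1L, LRRFIP1, AKAP19 and XRCC2, at 0.48 to 0.63, completed the 8, and none of these 4 was called in untreated cells. AKAP19 was not well above background on any Pre_only array and detected on all 4 Pre_IL13 arrays, at least 1.12-fold higher.

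Of the 8 uncalled genes below 0 in both passages with the smallest p, none was called in untreated cells. NAMPT, which makes an NAD precursor, stood at 8.95, 8.35 and 8.25 in Pre_only and at 7.08, 7.43, 7.90 and 8.03 in Pre_IL13 (-0.92 ± 0.19, limma adjusted p = 0.059). The groups did not overlap, as for 354 of all genes lower in Pre_IL13 (2.72%), and the passage 6 arrays of Pre_IL13 were the lowest. The log2 difference was -1.39 in passage 6 and -0.29 in passage 8, and a further NAMPT probe gave -0.98. In untreated cells NAMPT gave -0.021 and with the antibody -0.017. Pre_Ab_only arrays stood at 7.73, 7.73, 7.89 and 8.09, below all 3 Pre_only arrays, and with both groups as controls NAMPT gave -0.59 (limma adjusted p = 0.241). NPC1L1 (-0.47) and RAD52 (-0.44) were detected on 2 and 3 Pre_only arrays and not well above background on any Pre_IL13 array, at least 1.09-fold and 1.19-fold lower. SELENOP (-0.70), AKR1B10 (-0.95), RAB31 (-0.46), FBXO32 (-1.02) and HLA-DMB (-0.74) each had a limma adjusted p = 0.237. In untreated cells they gave, in that order, 0.028, -0.19, -0.20, -0.72 and -0.031, so that FBXO32 was also well below 0 there, though uncalled. With the antibody SELENOP (-0.62), AKR1B10 (-1.11), FBXO32 (-0.94) and HLA-DMB (-0.92) fell (limma adjusted p = 0.019, 0.0017, 0.0188 and 0.00102).

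The genes called for IL-13 in untreated cells were then read in the pretreated cells, whose own contrast uses other arrays, although all arrays shared the passage term and the estimate of the spread in the fit that called them. The 150 genes that rose in untreated cells had a median log2 change of 0.64 there, of 0.12 in pretreated cells and of 0.48 in pretreated cells with the antibody. In pretreated cells 108 of the 150 (72%) lay above 0, against 50.9% of all 12994 genes, whose median was 0.0034. With the antibody 140 of the 150 (93.3%) lay above 0, against 50.0% of all genes. The pretreated value was below the antibody value for 136 of the 150. Limma called 2 of them in pretreated cells, CCL26 and CDH6, and 75 with the antibody, where 4 and 150 of all 12994 genes rose.

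The 93 genes that fell in untreated cells showed the same order. Their medians were -0.54 in untreated cells, -0.078 in pretreated cells and -0.31 with the antibody. Below 0 lay 66 of the 93 (71.0%) in pretreated cells and 84 (90.3%) with the antibody. Of all 12994 genes, 50.9% and 50.0% lay above 0 in these settings. The pretreated median was -0.025 in passage 6 and -0.079 in passage 8. Limma called 0 of the 93 in pretreated cells and 32 with the antibody, where 0 and 141 of all genes fell. In pretreated cells 7 of the 93 had an unadjusted p under 0.05 in the same direction, beside 3.28% of all genes below 0 at that p.

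By single arrays, the 150 rising genes had medians of 0.064 and 0.12 on the Pre_IL13 arrays of passage 6 and of 0.14 and 0.16 on those of passage 8, each against the arrays without IL-13 of its own passage. With the antibody the 4 arrays gave 0.41 to 0.50, and in untreated cells 0.54 to 0.82. The ranges of the Pre_IL13 and antibody arrays did not overlap, and each Pre_IL13 array was above 0. The genes were chosen on the untreated arrays, so the untreated range is a description only. Arrays of a setting and passage share their reference, which for Pre_IL13 in passage 8 is the 1 Pre_only array P8-B. For the 93 falling genes the Pre_IL13 arrays gave -0.017, -0.022, -0.11 and -0.073, and the antibody arrays gave -0.37 to -0.27. On the passage 6 arrays of Pre_IL13 50 and 53 of the 93 lay below 0, and on those of passage 8 65 and 67. Medians of all genes on the Pre_IL13 arrays were 0.0021 and 0.0047 in passage 6 and -0.0049 and -0.0058 in passage 8.

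**Figure D2:**
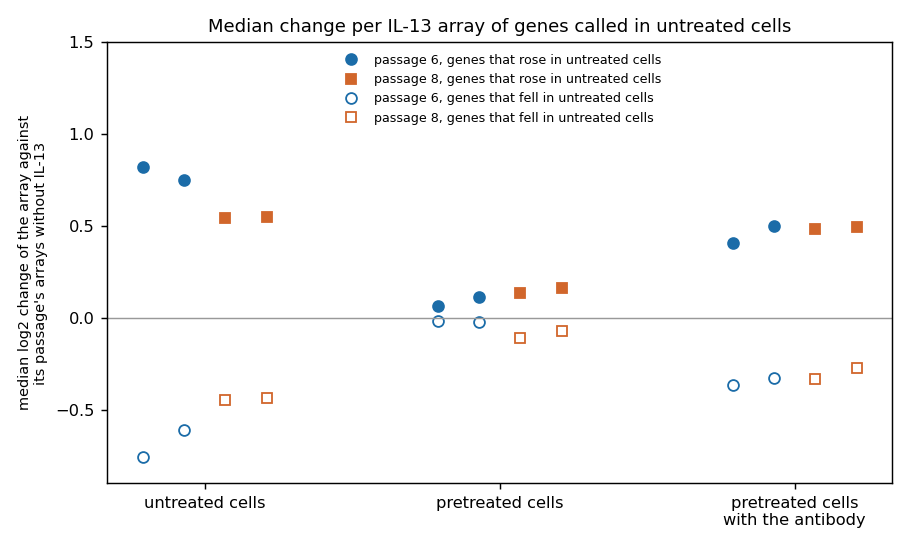
Median log2 change, per array given IL-13 against its passage's arrays without IL-13, of the 150 genes that rose and the 93 that fell in untreated cells. The genes were chosen on the untreated arrays, so their values there are a description; for the rising genes the Pre_IL13 medians lie at 0.064 to 0.16 and those with the antibody at 0.41 to 0.50.

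The genes with the largest rises in untreated cells had a larger median after pretreatment than the rest, but the order was not even across smaller rises. The 28 genes that rose at least 2-fold in untreated cells had a median of 1.31 there, 0.26 in pretreated cells and 1.06 with the antibody, and 25 of the 28 lay above 0 in pretreated cells. The 55 genes that rose less than 1.5-fold had a median of 0.081 in pretreated cells, with 39 above 0. The 95 genes that rose at least 1.5-fold, which include the 28, had 0.13, with 69 above 0. In passage 6 alone the pretreated median was 0.059 for the 95 and 0.076 for the 55. Among the 75 genes that rose both in untreated cells and with the antibody, the pretreated median was 0.19, with 63 above 0.

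**Figure D3:**
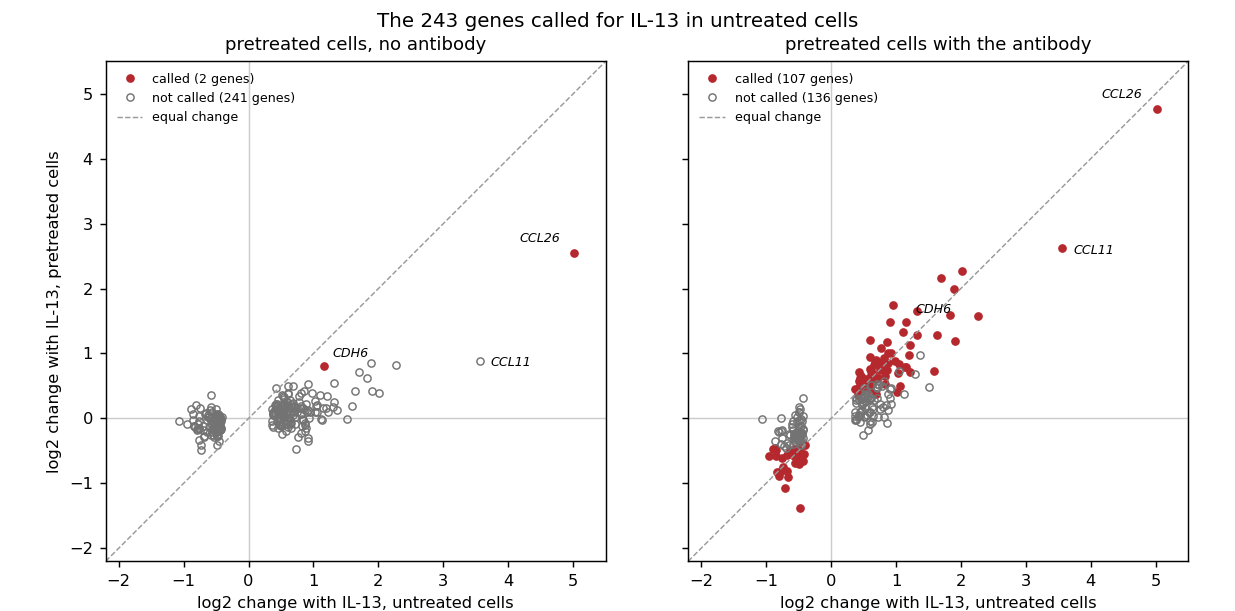
Log2 change with IL-13 of the 243 genes called in untreated cells (x axis) against the value in pretreated cells (y axis), without the antibody and, in the other panel, with it; each point is a gene, marked by whether it was called on the y axis, and the dashed line marks equal change. Without the antibody 2 genes were called, and with it 75 that rose and 32 that fell in untreated cells.

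CC chemokines spanned a wide range. CCL11, which encodes eotaxin-1, stood at 4.78, 4.64 and 4.66 in Pre_only and at 5.30, 5.36, 5.85 and 5.62 in Pre_IL13. The groups did not overlap, yet the log2 difference of 0.89 ± 0.31 was not called (limma adjusted p = 0.537). CCL11 was not well above background on the 4 Control arrays and at least 9.52-fold higher with IL-13, at levels of 8.65, 9.21, 6.95 and 6.73. With the antibody it reached 7.16 to 7.44, a log2 change of 2.62. The pretreated minus the untreated response was -2.67 ± 0.42 as fitted (limma adjusted p = 0.000719), a size that rests on Control levels at background. A fit of the 7 arrays alone called 5 genes, CCL11 (0.80, limma adjusted p = 0.0391), ANPEP, CCL26, CDH6 and NPPB (0.95, adjusted p = 0.00616), and not OXTR or WFDC1. NPPB, which encodes a natriuretic peptide, was named after its values were seen.

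CCL7 and CCL2, which draw monocytes, rose by 1.52 and 1.02 on the log2 scale in untreated cells and gave -0.014 and 0.10 in pretreated cells. Both were already abundant in Pre_only, at 8.47 to 9.17 and 12.82 to 13.18. The differences from the untreated response were called (-1.53, limma adjusted p = 0.0052, and -0.92, adjusted p = 0.000389). CCL5 (-0.13), CCL8 (-0.11) and CCL20 (-0.11) were not called. Of the 8 CC chemokines tested 1 rose, CCL26, where 4 of all 12994 genes rose, and the median was -0.037, beside 0.0034 for all genes. Limma called 0 of the 11 CXC chemokines in any of the 3 settings, and their pretreated median was -0.12, with CXCL3 the 1 member at an unadjusted p under 0.05 (0.31).

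The negative regulators of cytokine signalling were not called. SOCS1 stood at 7.27 to 7.49 in Pre_only and 7.37 to 7.69 in Pre_IL13, a log2 difference of 0.16 ± 0.11 (limma adjusted p = 0.83), against 1.15 in untreated cells and 0.80 with the antibody. The groups overlapped, and both differences between settings were called (-0.997, limma adjusted p = 0.000342, and 0.64, adjusted p = 0.0442). CISH, whose promoter is shown above, was undetected on all 7 arrays, so that no fold is given. It rose in untreated cells (0.66, limma adjusted p = 0.00218) and, after the antibody, stood at least 1.44-fold above its level without IL-13.

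The receptor genes themselves were not called. IL13RA1, part of the signalling receptor, was at 9.68 to 9.85 in Pre_only and 9.29 to 9.57 in Pre_IL13, a log2 difference of -0.32 ± 0.10 (limma adjusted p = 0.462) with no overlap between the groups. IL4R gave 0.20 (limma adjusted p = 0.822) and STAT6 -0.11 (adjusted p = 0.886). The decoy IL13RA2 stood at 11.64 to 11.81 in Pre_IL13, a log2 difference of 0.27 ± 0.15 (limma adjusted p = 0.813), where untreated cells gave 1.03 and cells with the antibody 0.70. Its difference from the untreated response was not called (-0.76, limma adjusted p = 0.191). Of 22 tested genes of the receptor and STAT6 pathway, limma called 0 in pretreated cells, with 2 at an unadjusted p under 0.05 and a median of -0.0026. In untreated cells 3 rose and 2 fell, and with the antibody 4 rose and 1 fell. Of all 12994 genes, 150 rose and 93 fell in untreated cells, and 150 rose and 141 fell with the antibody.

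Of the 17 tested genes known to be induced by IL-13 or IL-4, 1 rose in pretreated cells, 10 in untreated cells and 13 with the antibody. Of all 12994 genes, 4, 150 and 150 rose in these settings. The median was 0.16 in pretreated cells, 0.69 in untreated cells and 0.72 with the antibody. POSTN, which encodes periostin, gave 0.35 ± 0.21 (limma adjusted p = 0.823), against 1.21 in untreated cells. TNC, the matrix protein tenascin C, gave 0.40 (limma adjusted p = 0.65) and BATF3, a transcription factor, 0.72 (adjusted p = 0.367). BATF3 rose by 1.70 in untreated cells and 2.17 with the antibody, and the difference between antibody and no antibody was called (1.45, limma adjusted p = 0.00991).

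The test of the pretreated against the untreated response called 39 genes (0.3% of all), of which 33 were lower and 6 higher in the pretreated response. ST8SIA1, a ganglioside sialyltransferase, was not well above background on any Pre_only array and stood at 4.45, 4.66, 5.73 and 5.04 in Pre_IL13, where 3 of the 4 arrays detected it, at least 1.26-fold higher. It rose by 2.01 in untreated cells (fitted difference -1.63, limma adjusted p = 0.000342), and the size of the difference rests on Pre_only levels at background. LRRC8B, part of the anion channels that regulate cell volume, gave 0.41 where it rose by 1.91 in untreated cells (difference -1.49, limma adjusted p = 0.000871). C1QTNF1, a secreted protein, gave 0.19 against 1.59 (difference -1.40, limma adjusted p = 6.53e-06). PTGIS, prostacyclin synthase, gave 0.42 against 1.64, and SFR1, a DNA repair factor, 0.25 against 1.32. The differences of DCLK1 (-1.12), SOX11 (-0.97) and SCUBE3 (-0.97) came with pretreated values of -0.0025, -0.11 and 0.095, and SOX11 was undetected on all 7 arrays.

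NFIL3, a transcription factor known from immune cells, stood at 7.55, 7.57 and 7.35 in Pre_only and 7.15, 7.11, 7.07 and 7.40 in Pre_IL13 (-0.30 ± 0.13, limma adjusted p = 0.719). It rose by 0.92 in untreated cells and by 1.01 with the antibody, and both differences were called (-1.22, limma adjusted p = 0.000342, and 1.31, adjusted p = 8.54e-05). The tight junction gene CLDN1 (-0.081), the muscle gene TRIM55 (0.15), the protease gene ADAMTS1 (0.072) and the autophagy gene DRAM1 (-0.12) were not called in pretreated cells. In untreated cells they changed by -0.95, -0.89, -0.86 and -0.84, and their differences were called, at 0.87, 1.03, 0.93 and 0.72. INHBE, SPINT2 and IL6, all called rises in untreated cells, gave 0.83, 0.54 and 0.12, and no difference was called (limma adjusted p = 0.0576, 0.395 and 0.353). For KISS1 (-0.037), TENT5C (-0.028), LCE2C (-0.12) and KCNF1 (-0.13), which fell in untreated cells, no difference was called either.

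**Figure D4:**
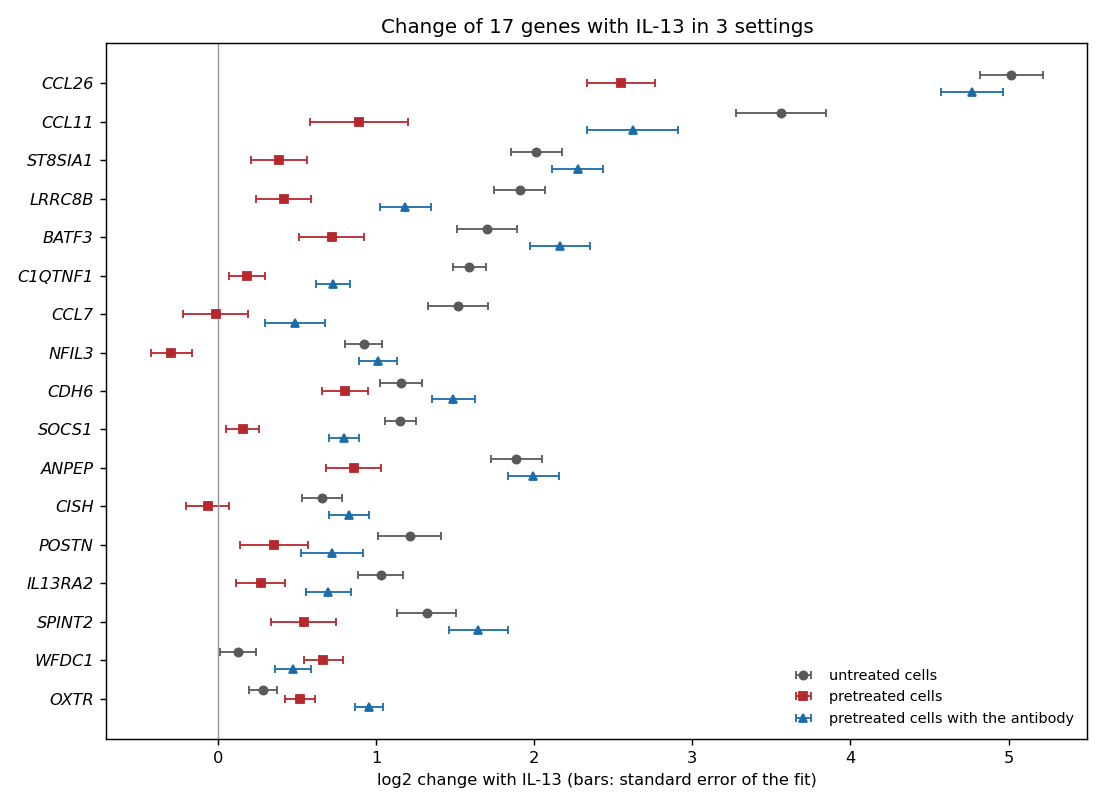
Log2 change with IL-13 of 17 genes in untreated cells, pretreated cells and pretreated cells with the antibody, with the standard error of the fit as bars. CCL26 gave 5.02, 2.55 and 4.77 in that order, and NFIL3 0.92, -0.30 and 1.01.

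The test between passages, whose passage 8 Pre_only arm is the 1 array P8-B, called 22 genes (0.169%), of which 21 had the higher IL-13 response in passage 8. FBXO32, a ubiquitin ligase gene known from muscle wasting, stood at 8.83, 8.95 and 7.48 in Pre_only and 7.21 to 7.46 in Pre_IL13. It gave -1.55 in passage 6 and -0.064 in passage 8 (difference 1.49 ± 0.26, limma adjusted p = 0.00578). AKR1B10, an aldo-keto reductase, stood at 6.96, 6.53 and 5.33 in Pre_only and at 5.22, 5.40, 5.35 and 5.18 in Pre_IL13 (difference 1.38, limma adjusted p = 0.0177). In both, the Pre_only array P8-B lay near the Pre_IL13 level, while the passage 6 arrays lay above it. PTGS2, cyclooxygenase 2, differed in another way: Pre_only stood at 8.73 to 8.97, and Pre_IL13 at 7.84 and 7.70 in passage 6 and 9.07 and 9.13 in passage 8 (difference 1.33, limma adjusted p = 0.0325).

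AKR1C3, which acts on prostaglandins and steroids, gave -1.53 in passage 6 and 0.015 in passage 8. The AKR1C genes have near-identical paralogs, so single members are uncertain. The following were named after their values were seen. PDK4, a brake on pyruvate use, gave -1.87 and 0.06. TDO2, a tryptophan-degrading enzyme, gave -1.87 and 0.052, and TNFSF10, the death ligand TRAIL, -1.86 and 0.34. With the antibody each passage has 2 arrays per group. There AKR1B10 gave -1.39 in passage 6 and -0.84 in passage 8. HLA-DMB, an antigen-loading gene not called in the test between passages, gave -1.35 and -0.50. Both fell there over the 2 passages (limma adjusted p = 0.0017 and 0.00102), as did PDK4 and TNFSF10 (limma adjusted p = 0.00377 and 0.00218). TDO2 did not, at 0.10 and 0.23 (limma adjusted p = 0.908). C11orf96 gave -1.79 and 0.31 without the antibody and rose with it (0.34 and 1.69, limma adjusted p = 0.02).

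Leaving out Pre_only P8-B brought 45 calls, 10 rises and 35 falls. Of those 35 genes 13 were called as falls with the antibody, where 141 of all 12994 genes were. The test between passages rests on the same array P8-B and the same passage 6 arrays, so its overlap with the 45 genes is in part fixed beforehand. NAMPT (-1.12, limma adjusted p = 0.0067), AKR1B10 (-1.43, adjusted p = 0.00065) and COL6A1 (0.58, adjusted p = 0.0045) were among the 45. Leaving out either passage 6 array of Pre_only gave 1 call, as did leaving out P8-A of Pre_IL13, and each of the other Pre_IL13 arrays gave 2. An effect of the array P8-B and one of the passage cannot be told apart here, since Pre_only has 1 array of passage 8. Pre_Ab_only in passage 8 stood at 7.64 and 7.46 for FBXO32 and at 5.84 and 5.67 for AKR1B10.

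**Figure D5:**
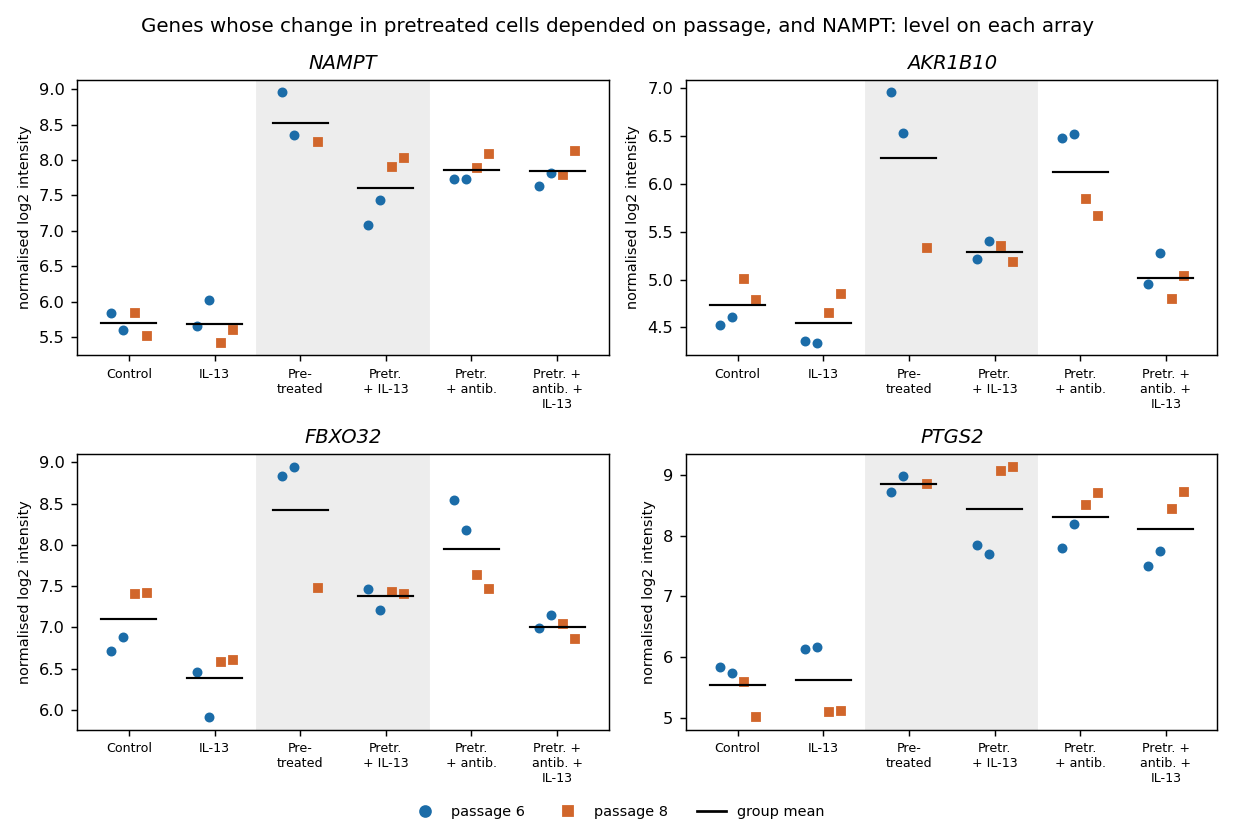
Level (normalised log2 intensity) of NAMPT, AKR1B10, FBXO32 and PTGS2 on each array; circles passage 6, squares passage 8, lines group means, grey band Pre_only and Pre_IL13. For AKR1B10 and FBXO32 the single Pre_only array of passage 8 lies at 5.33 and 7.48, near the Pre_IL13 arrays.

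In the remaining gene groups without a member named so far as called, limma called 0 members in pretreated cells, and medians are set beside 0.0034 for all genes. Of all genes, 3.13% were above 0 and 3.28% below 0 at an unadjusted p under 0.05. Of 39 matrix genes 8 were above 0 and 2 below 0 at an unadjusted p under 0.05, and the median was 0.048. COL12A1 (0.34), FBN2 (0.34) and FBLN1 (-0.36) followed COL6A1 by p. In untreated cells 6 of the 39 rose and with the antibody 7, where 150 of all 12994 genes rose in each setting. For 27 glycolysis and hypoxia genes the median was -0.15, and 5 lay above 0 at any p. At an unadjusted p under 0.05, 1 was above 0 and 6 were below 0, with ALDOA (-0.30), ALDOC (-0.40) and NDRG1 (-0.41) among those below. The 28 interferon response genes had a median of -0.15, at -0.25 in passage 6 and -0.027 in passage 8, with IFIT1 at -0.64 and MX1 at -0.45. Of 26 cell cycle genes 3 were above 0. Their median was -0.089, with 0.11 in passage 6 and -0.36 in passage 8. In untreated cells 5 of them fell and with the antibody 9, against 93 and 141 of all 12994 genes.

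The 14 contractile genes had a median of 0.15, at 0.22 in passage 6 and -0.061 in passage 8, with SMTN at 0.28. For 27 genes induced by TNF and NF-kB the median was 0.051. In the prostaglandin list limma called 0 of 15, with 2 above 0 and 2 below 0 at an unadjusted p under 0.05 and a median of 0.018. Of 14 cadherins and partners CDH6 alone rose, with a median of 0.13, and CDH2 (0.51), PCDH7 (0.37), CTNND1 (0.34) and PCDH18 (0.33) had an unadjusted p under 0.05. Of 16 secreted protease inhibitors WFDC1 alone rose, with a median of -0.0051 and SERPINB7 at -0.40. Of 15 vasoactive receptors OXTR alone rose, with a median of 0.11, and PTGER4, a prostaglandin receptor, gave 0.49. The share called over all genes was 0.0308%. Earlier results of these data were known when the lists were chosen, so a called member is no result about its list.

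Limma called 0 fibroblast markers (median -0.04 over 13), smooth muscle markers (0.16 over 7), epithelial markers (-0.087 over 4), endothelial markers (-0.23 over 2) and leukocyte markers (-0.063 over 5) in pretreated cells. At an unadjusted p under 0.05 the counts were 1, 1, 0, 1 and 0 in that order. The summed intensity of the 5 leukocyte markers was 2792 to 3026 in Pre_only and 2430 to 2735 in Pre_IL13, with CD14, CD68 and LYZ detected on all 7 arrays, and its part in the results was not tested.

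Between the responses with and without the antibody 30 genes differed (0.231%), 26 of them higher with the antibody. The following were named after their values were seen. STEAP1, a metalloreductase, gave -0.082 in pretreated cells and rose by 1.35 with the antibody. RHOU, a small GTPase, gave 0.095 and 1.75, and IL1RL1, the receptor for IL-33, 0.031 and 1.16. HAS3, a hyaluronan synthase, gave 0.076 and 1.28. GRB14, an adaptor of insulin signalling, gave -0.19 and -1.38 and was 1 of the 4 lower with the antibody.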

How the data were processed

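RNA (300 ng per array) of CCL-75 fibroblasts was measured on Illumina HT-12 beadchips. The authors deposited bead-averaged intensity values without normalisation, with a detection p-value and a bead number per probe, per the file headers, and a table of log2 values. GenomeStudio 2011.1 is named in the submitters' processing notes. How the authors normalised the log2 table is not given in the sources used here. Its columns share 1 distribution and follow log2 intensity, and it served as an alternative.

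Intensities of 47323 probes (14 without a value) were background-corrected, quantile-normalised and put on the log2 scale with neqc (limma 3.58.1, R 4.3.3, offset 16). A probe was kept where 3 or more arrays gave a detection p below 0.05 (24096 probes, of which 17541 had 1 symbol), and the probe with the highest mean stood for each of 12994 genes. Limma (lmFit, eBayes with intensity trend, 16 residual degrees of freedom) fitted group and passage over all 23 arrays, with Benjamini-Hochberg adjustment over all genes. For passage differences, groups were fitted within passages. The fit was tested on simulated data. Arrays were grouped by title. The number of arrays limits the precision.

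The comparison, the gene lists and the genes named were chosen with earlier results of these data known. Named genes were the called genes, the 8 uncalled genes with the smallest p in each direction with 1 sign in both passages, the 14 largest rises and 8 largest falls of untreated cells with 1 sign in both passages, and up to 12 called differences. Up to 6 members of each of 19 lists by p, and receptor and feedback genes, were added. Whether equal replicate labels pair arrays was checked by correlating deviations from the group means. Alternatives covered background, scaling, filter, probe choice, model and single arrays. Symbols and promoter sequences come from RefSeq (GRCh38.p14).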

Additional observations from a re-analysis of the deposited data

Results flagged for a closer look

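Dixon's ratio of the gap to the whole range was set against its 95% critical value for 4 samples in 152 groups of 4 arrays. These were the named genes in Pre_IL13, and CCL26, CDH6, WFDC1 and OXTR also in the other groups of 4 arrays. In 9 of the 152, all in Pre_IL13, 1 array stood far from the others. Chance gives about 1 such group in 20. The outlying array was the highest for RAB31 on P8-B (0.922), PTGIS on P6-B (0.880), KISS1 on P8-B (0.841), IL13RA2 on P6-B (0.889), POSTN on P6-B (0.956), COL3A1 on P6-B (0.871) and CSF1R on P8-B (0.834). It was the lowest for VWF on P6-A (0.857) and CD68 on P8-B (0.965). POSTN stood at 8.12 against 7.27 to 7.31 on the other arrays, and RAB31 at 9.09 against 8.94 to 8.95.

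For named genes, limma's test of the pretreated minus the untreated response passed an adjusted p under 0.05 with negative log2 differences for CCL26 (-2.473), ANPEP (-1.028), CFAP300 (-1.204), CCL11 (-2.669), ST8SIA1 (-1.628), LRRC8B (-1.494), PTGIS (-1.218), C1QTNF1 (-1.403), CCL7 (-1.530), SFR1 (-1.070), SOCS1 (-0.997), NFIL3 (-1.216), SOX11 (-0.973), SCUBE3 (-0.966), CCL2 (-0.920) and DCLK1 (-1.119). The difference was positive for CLDN1 (0.872), TRIM55 (1.035), ADAMTS1 (0.933) and DRAM1 (0.718), all of which fell in untreated cells. These genes were in part named for their untreated response, which fixes part of the direction of the difference.

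The antibody minus the no-antibody response was called for CCL26 (2.224), ANPEP (1.135), CFAP300 (0.974), SLIT2 (0.955), ST8SIA1 (1.889), BATF3 (1.448), SFR1 (1.042), SOCS1 (0.642), NFIL3 (1.307) and CISH (0.892). The passage 8 minus the passage 6 response of pretreated cells was called for CCL26 (1.338), AKR1B10 (1.376), FBXO32 (1.487), AKR1C3 (1.544) and PTGS2 (1.330), where Pre_only has 1 array in passage 8. The sizes for CCL11, ST8SIA1, CISH and SOX11 rest in part on levels at background.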

How the results depend on the processing

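CCL26 kept its call in all 23 alternatives. Of 3117 pairs of a named gene and an alternative, 41 gained and 42 lost a call. The losses were all of CDH6 (10), OXTR (16) and WFDC1 (16). A reversal was counted only for a gene called in the main fit or in the alternative, and 0 were found. Most pairs had no call and could not count. Among uncalled genes signs did change, as for CCL7 and DCLK1 in 9 alternatives each. Against 4 calls in pretreated cells, median scaling gave 2, and no passage term, the mean of experiments A and B, no intensity trend and a minimum fold of 1.2 gave 1 each. Passage 6 alone gave 28 calls and adjustment over 5 comparisons together 21. Leaving out 1 array gave 1 to 45, the 45 without Pre_only P8-B.

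Deviations of Pre_only and Pre_IL13 arrays with the same replicate label correlated at -0.23, -0.18 and -0.083. With so few arrays per group and passage these values cannot decide whether experiments A and B pair the arrays, so both models are given. With passage and experiment as a replicate block, 1 gene (CCL26) was called in pretreated cells, 221 in untreated cells and 273 with the antibody. For the differences of the pretreated response from the untreated and the antibody response, 32 and 24 were called.

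Against 243 calls in untreated cells, median scaling gave 92, no passage term 113, the mean of A and B 55 and a minimum fold 54. Against 291 with the antibody these gave 161, 149, 75 and 68, the 2 groups alone 596, passage 6 alone 123 and array weights 622. Against 39 differences from the untreated response they gave 9, 22, 3 and 15, passage 6 alone 114 and single arrays left out 21 to 68. Against 30 differences with the antibody they gave 11, 16, 3 and 9, own arrays 61, array weights 47 and single arrays left out 18 to 42. For the passage differences Pre_only P8-B was never left out, since the test cannot be made without it, so reliance on that array was not tested. Of 22 passage differences, median scaling left 4 and own arrays 13, and leaving out 1 array gave 10 to 22.

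The median in pretreated cells of genes that rose in untreated cells (0.12) was 0.26 for genes at least 2-fold there, 0.073 without background correction, 0.074 with the authors' values, 0.20 for the mean of A and B and 0.044 in passage 6. That of genes that fell (-0.078) was -0.015 without the passage term, -0.13 for the mean of A and B and -0.019 in passage 6. Median scaling gave 0.28 and 0.076, where the median of all genes moved to 0.14, and relative to that 0.14 and -0.060. The cause of these changes was not tested. Signal near background limits CISH, SOX11, ST8SIA1, SCUBE3 and CCL11.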
